A study of Mus musculus with 20 samples.

Results

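The interaction of doxorubicin (DOXO) and folic acid (FA) asks whether the change that DOXO makes in the left ventricle is another one when the mice are fed FA. It was calculated for each transcript cluster, the array's summary of the probes of a gene, as the difference FA-DOXO minus FA-sham less the difference DOXO minus sham. A value above 0 means that the DOXO difference was higher under FA, and a value below 0 that it was lower. Of the 34760 clusters on the array, the 21640 that carry exactly 1 gene symbol are described, and they stand for 19937 different genes.

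All 20 arrays entered the contrast. The ventricles came from male C57BL/6 mice of 2 months. The 4 sham and 4 FA-sham mice had saline in place of DOXO, and the 6 DOXO and 6 FA-DOXO mice had a single intraperitoneal dose of 20 mg/kg. FA-sham and FA-DOXO mice took 10 mg of FA a day from 7 days before that injection to the end of the experiment at day 10, while sham and DOXO mice took placebo. Each array holds RNA from a whole piece of ventricle, so fewer cells of a type and less RNA per cell cannot be told apart. The 12 cardiomyocyte markers had a median log2 signal of 11.06, against 6.63 for all genes, so that markers of the labelled tissue were present. Since the labels number the samples without naming litters or cages, p-values measure the spread between these samples.

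Doxorubicin is an anthracycline that binds DNA, traps topoisomerase II and cycles between redox states. In heart muscle it is known to damage mitochondria, to activate p53 and to raise stress proteins such as metallothioneins. FA is a cofactor source for one-carbon metabolism and is thought to keep tetrahydrobiopterin, and with it endothelial NO synthase, in working order. Acute-phase proteins are secreted proteins that inflammatory cytokines induce through NF-kB, STAT3 and C/EBP factors, and glucocorticoid-responsive genes are induced when stress hormone binds its receptor. NF-kB itself is held in the cytoplasm by the inhibitor that Nfkbia encodes.

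The arrays differed in how far their log2 signals spread. The SD of an array ran from 0.863 to 1.5, and 8 arrays with an SD above 1.1 are called wide, namely 3 sham, 1 FA-sham, 2 DOXO and 2 FA-DOXO arrays. The mean array SD was 1.27 ± 0.253 (SD, n = 4) in sham, 0.957 ± 0.123 (n = 4) in FA-sham, 1.13 ± 0.265 (n = 6) in DOXO and 1.04 ± 0.185 (n = 6) in FA-DOXO mice. The interaction of the array SD itself was 0.218, with a two-sided exact permutation p of 0.326 over 64680 assignments of FA within each arm. When the array SD was entered as a term of the model, it passed an adjusted p of 0.05 in limma in 28399 of the 34760 clusters. The mean signal of the cardiomyocyte markers moved with it, from 9.93 to 13.1 over the sham, 8.32 to 11.9 over the FA-sham, 9.08 to 12.7 over the DOXO and 8.43 to 12.3 over the FA-DOXO arrays, with the highest value of each group on a wide array. Why the arrays differ in spread was not tested. Interactions are therefore given from both fits, first from the 4 group means alone and then with the array SD added. Values among wide arrays alone rest on 1 FA-sham array and those among narrow arrays alone on 1 sham array (replicate 4), and that lone array is assumed to vary like the other groups.

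No cluster showed a DOXO difference that depended on FA at an adjusted p of 0.05 in limma, in either fit. The lowest adjusted limma p was 0.57 without the array SD and 0.11 with it, and for every named cluster past the threshold described next it was 0.57 in the first and 0.259 to 0.537 in the second. In altered fits, 25486 clusters passed 0.05 when arrays were weighted without the array SD, and 4 passed with it when sham replicate 4 was left out. The weights were estimated from the same values by a gene-by-gene algorithm, as REML did not converge. With them 22356 of 34760 clusters passed an unadjusted 0.01, against 161 without weights, so these clusters are not read as results. At the unadjusted 0.01 that the study names, which 1% of clusters would pass where nothing differs, 161 of all clusters passed without the array SD and 618 with it, and 1803 and 3000 passed an unadjusted 0.05. A cluster past 0.01 is named a call in what follows, and its adjusted p did not pass. Among named clusters 52 passed without it (0.24%), of which 16 lay above and 36 below 0. With it 375 passed (1.73%), of which 37 lay above and 338 below 0. Of the 52 named calls, 49 (94.2%) were among the 375, where they made up 13.1%, and each kept its sign. The median SE of an interaction among named clusters was 0.27 without and 0.14 with the array SD.

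Which direction led depended on scaling. Of all clusters 72 calls lay above and 89 below 0 without the array SD, against 166 and 82 after each array was centred on its median and 101 and 134 after quantile normalization. The corresponding splits with the array SD were 128 and 490, 257 and 194, and 187 and 221.

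The calls below 0 had a common form on the deposited scale. Without the array SD, DOXO was above sham and FA-DOXO below FA-sham in 36 of 36 named clusters, with median differences of 0.35 and -0.21, and in 82.3% of all named clusters below 0. When the array SD was in the fit this held for 311 of 338, at medians of 0.23 and -0.13, against 59.6% of all named clusters below 0, and in 257 of them (76.0%) the difference without FA was the larger in size, against 64.0% of all named clusters below 0. Among calls above 0, DOXO was below sham and FA-DOXO above FA-sham in 13 of 16 named clusters without the array SD and in 36 of 37 with it, against 75.4% and 42.5% of all named clusters above 0. The count of 13 of 16 is near that background. Beside these counts stands the level of the sham groups. Without the array SD, sham had the lowest mean of the 4 groups in 35 of the 36 clusters called below 0 and FA-sham the highest in 31, while over all named clusters below 0 these shares were 88.7% and 81.4%. After the array SD was taken into account, sham was the lowest in 313 of 338 (92.6%) against 70.1% of all named clusters below 0. The part of the sham arrays in the calls, as opposed to that of the DOXO arrays, was not tested.

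**Figure D1:**
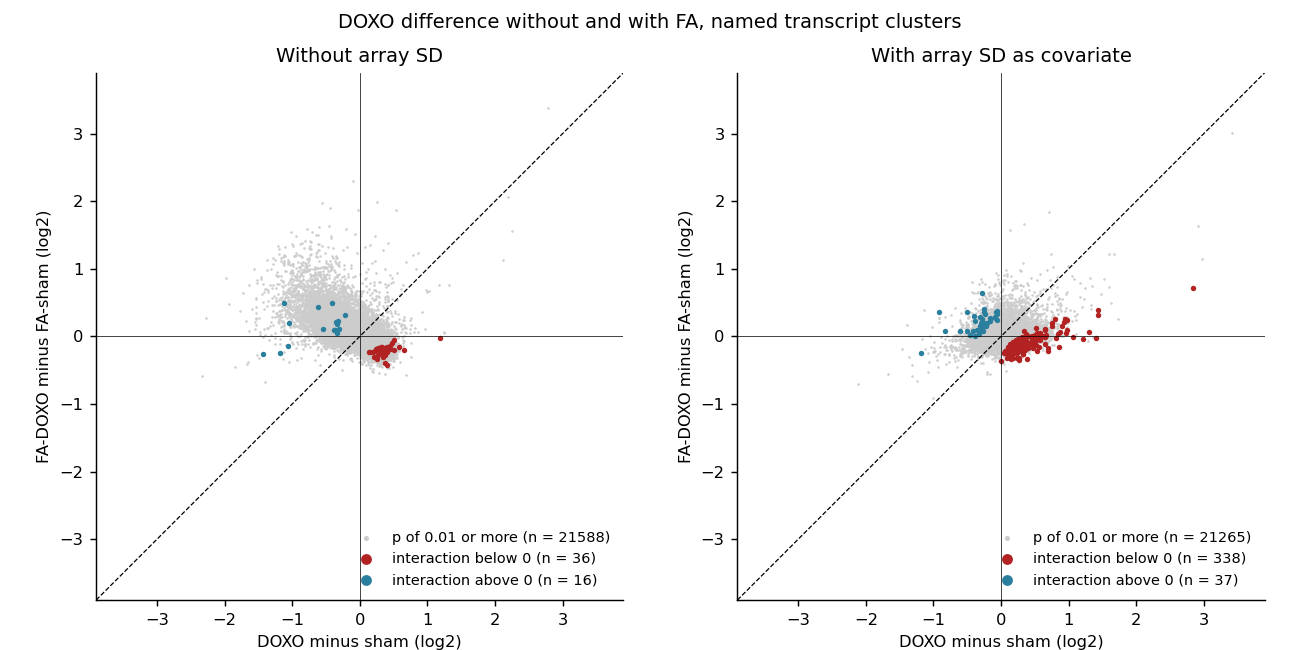
Difference DOXO minus sham (horizontal, log2) against FA-DOXO minus FA-sham (vertical, log2) for 21640 named clusters, in the fit without (left) and with (right) the array SD; the dashed line marks equal differences. The 36 and 338 clusters called below 0 (red) lie to the right of the line, most of them below the horizontal axis, and the 16 and 37 called above 0 (blue) lie to its left.

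Saa3, which encodes an acute-phase serum amyloid A protein made outside the liver, had the lowest interaction among named calls without the array SD. Its log2 signal was 6.17, 5.42, 5.66 and 6.52 in the sham mice and 6.65, 6.48, 6.68 and 6.43 in the FA-sham mice. It ran from 6.71 over a median of 6.80 to 8.49 in DOXO and from 6.15 over 6.60 to 6.82 in FA-DOXO mice. All 6 DOXO arrays thus lay above every sham array, whereas the FA-DOXO arrays lay on both sides of the FA-sham arrays and 4 of 6 lay below every DOXO array. DOXO minus sham was 1.18 and FA-DOXO minus FA-sham -0.02, which gave an interaction of -1.21 ± 0.41 (SE) without and -1.25 ± 0.43 with the array SD. The highest DOXO value came from replicate 5, a wide array, and the interaction was -2.36 among wide arrays, with 1 FA-sham array, and -0.13 among narrow arrays, where sham replicate 4, the highest of its group, is the single sham array. Its call was lost without any 1 of 11 arrays in the first fit and of 12 in the second, where leaving out DOXO replicate 5 gave -0.70.

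Lrrc52, which encodes an auxiliary subunit of potassium channels, was called in both fits as well. Its signal was 6.56, 6.31, 6.22 and 6.67 in sham and 7.01, 7.10, 7.19 and 6.79 in FA-sham mice, and it reached from 6.66 to 7.86 around a median of 6.93 in DOXO and from 6.63 to 6.97 around 6.83 in FA-DOXO mice. All FA-sham arrays lay above all sham arrays, and 5 of 6 DOXO arrays lay above every sham array. The interaction was -0.86 ± 0.26 (SE) and -0.92 ± 0.25, and the second passed 0.01 whichever array was left out, at -1.11 to -0.65, and without the array SD the call was lost when sham replicate 3 was left out.

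Clec4e encodes the macrophage receptor Mincle, which senses mycobacterial glycolipids and dead cells. Its signal was 5.73, 5.17, 5.20 and 6.08 in sham mice and 6.21, 6.26, 6.26 and 6.14 in FA-sham mice. DOXO arrays ran from 5.93 to 6.51 with a median of 6.02, and FA-DOXO arrays from 5.75 to 6.24 with a median of 6.09. The groups given DOXO overlapped widely. Of the sham arrays, the 3 wide ones lay below every other array, and replicate 4, the narrow one, lay within the range of the DOXO arrays. The interaction was -0.73 ± 0.23 (SE) without and -0.62 ± 0.21 with the array SD, at -0.08 among narrow arrays.

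Dnah3, a dynein heavy chain of motile cilia, had the smallest p of all named clusters with the array SD. The signals were 5.37, 4.97, 5.18 and 5.76 in sham and 6.12, 6.26, 6.13 and 5.93 in FA-sham mice, from 5.29 to 5.93 in DOXO (median 5.80) and from 5.50 to 5.97 in FA-DOXO mice (median 5.72). All of these signals lay under the median of an array (6.61), and the 3 lowest sham signals were from wide arrays. All FA-sham arrays were above all sham arrays, and 5 of 6 FA-DOXO arrays were below every FA-sham array. The interaction was -0.77 ± 0.22 (SE) without the array SD and -0.55 ± 0.10 with it (adjusted p = 0.259 in limma). The value without it stayed past 0.01 whichever array was left out. It was -0.64 among wide arrays, with 1 FA-sham array, and -0.43 among narrow arrays, with 1 sham array.

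Glp1r, the receptor of the incretin GLP-1, followed the same order of groups. Its signal was 6.06, 5.59, 5.84 and 6.32 in sham, 6.47, 6.50, 6.58 and 6.26 in FA-sham, 6.14 to 6.44 (median 6.30) in DOXO and 5.88 to 6.41 (median 6.20) in FA-DOXO mice. The interaction was -0.65 ± 0.19 (SE) and, with the array SD, -0.47 ± 0.11. Hdc, the enzyme that makes histamine, gave -0.62 ± 0.19 and -0.50 ± 0.14, and Plb1, a phospholipase, -0.62 ± 0.18 and -0.52 ± 0.14. Slc18a1, a vesicular monoamine transporter, gave -0.71 ± 0.24 and -0.49 ± 0.15, and P2ry4, a receptor of extracellular nucleotides, -0.61 ± 0.21 and -0.45 ± 0.15. Apol7a of the apolipoprotein L family had -0.64 ± 0.21 and -0.45 ± 0.12, Gabarapl2, a ubiquitin-like protein of autophagosomes, -0.64 ± 0.20 and -0.56 ± 0.19, and the clone 4930578G10Rik -0.83 ± 0.25 and -0.62 ± 0.17. In each of these 8 genes the mean was lowest in sham and highest in FA-sham mice. Their mean log2 signals were 5.75 to 7.44, around the median of an array (6.61), and 24 of the 36 named clusters called below 0 (66.7%) had a mean signal under that median, against 67.4% of all named clusters below 0. By the array SD term, 32 of these 36 clusters (88.9%) were lower on wider arrays, against 89.6% of all named clusters below 0. Of the 4 arrays each, 3 were wide in sham and 3 narrow in FA-sham mice. The part of array spread in the order of the groups was not tested. Of these 8 genes, Plb1 kept its call whichever array was left out, and Slc18a1 and P2ry4 lost theirs without any 1 of 14 arrays.

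Among calls above 0, Zfp931 had the highest interaction. It encodes a zinc finger protein of unknown target. Its signal was 7.99, 7.22, 7.35 and 6.32 in sham and 5.39, 6.03, 5.22 and 6.99 in FA-sham mice, and ran from 5.63 to 7.16 (median 5.96) in DOXO and from 5.93 to 6.83 (median 6.32) in FA-DOXO mice. The 3 highest sham values and the highest FA-sham value were from wide arrays. The interaction was 1.62 ± 0.51 (SE) without and 1.28 ± 0.44 with the array SD. Zfp141, another zinc finger gene, had 7.45, 8.25, 8.21 and 7.23 in sham and 6.86, 6.73, 6.31 and 7.41 in FA-sham mice, with 6.45 to 7.19 (median 6.73) in DOXO and 6.14 to 7.79 (median 6.98) in FA-DOXO mice. All 6 DOXO arrays lay below every sham array. Its interaction was 1.24 ± 0.40 and 0.91 ± 0.28, and that of Zfp950, also of this kind, 0.55 ± 0.16 and 0.44 ± 0.12.

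Cxcl9, a chemokine that interferon gamma induces and that attracts T cells, was another call above 0. The signals were 8.53, 8.03, 8.54 and 7.27 in sham, 7.20, 7.30, 7.12 and 7.90 in FA-sham, 6.38 to 7.13 (median 7.05) in DOXO and 7.02 to 7.30 (median 7.13) in FA-DOXO mice. Every DOXO array lay below every sham array, and 3 of 6 FA-DOXO arrays below every FA-sham array. DOXO minus sham was -1.18 and FA-DOXO minus FA-sham -0.25 in both fits, and the interaction was 0.94 ± 0.31 (SE) and 0.93 ± 0.32. Among narrow arrays alone it was 0.13, and the call was lost without any 1 of 11 arrays in the first fit and of 14 in the second.

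Mlkl, the pseudokinase that ruptures the membrane in necroptosis, had a small call in the same direction. It was at 6.38, 6.58, 6.89 and 6.46 in sham, at 6.28, 6.27, 6.29 and 6.30 in FA-sham, at 6.19 to 6.36 (median 6.27) in DOXO and at 6.28 to 6.60 (median 6.37) in FA-DOXO mice. All DOXO arrays were below every sham array, and 5 of 6 FA-DOXO arrays above every FA-sham array. The interaction was 0.41 ± 0.14 (SE) and 0.35 ± 0.12.

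Myo9a, an unconventional myosin, is read by 2 clusters, and both were called in both fits. They gave 1.06 ± 0.32 and 0.91 ± 0.28 (SE) without the array SD and 0.87 ± 0.28 and 0.65 ± 0.16 with it. Nrep, a small protein of regenerating neurons and myofibroblasts, gave 1.17 ± 0.39 without the array SD, and 1.05 ± 0.38 with it, where it was no call. All 6 DOXO arrays of Nrep, from 6.75 to 7.46, were below the lowest sham array at 7.48. BC028528, known by its cDNA clone, gave 0.93 ± 0.32 and 0.68 ± 0.24, a call without the array SD and not with it. Gngt2, a G protein gamma subunit, gave 0.56 ± 0.19 and 0.46 ± 0.15, and Stk38l, a kinase of the Hippo branch, 0.52 ± 0.17 and 0.44 ± 0.14. The gene model Gm14636 gave 0.54 ± 0.15 and 0.57 ± 0.14, but -0.23 without the array SD when signals were floored at the 20th percentile. Of the 24 clusters named for the size of their call without the array SD, Dnah3, Plb1, Mir1839 and Gm14636 kept it whichever array was left out, and the other 20 lost it without any 1 of 1 to 16 arrays.

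Mir1839 was the single microRNA gene called in both fits. Its mature strand in RefSeq (GRCm38.p6, chr7:81529919-81529940, plus strand) is printed with the seed, bases 2 to 8, in capitals, because the seed decides which transcripts a microRNA pairs with.
mmu-miR-1839-5p: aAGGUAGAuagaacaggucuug
The signal of its cluster was 6.54, 6.18, 6.02 and 5.83 in sham, 5.72, 5.61, 5.53 and 5.65 in FA-sham, 5.44 to 5.75 (median 5.60) in DOXO and 5.49 to 6.02 (median 5.72) in FA-DOXO mice. All DOXO arrays lay below every sham array, with no such order between FA-DOXO and FA-sham. The interaction was 0.65 ± 0.18 (SE) and 0.58 ± 0.16, past 0.01 in both fits whichever array was left out. An array of this kind reads the locus, precursor included, so these are not levels of the mature strand. Of 300 microRNA genes, 1 passed without (0.33%) and 3 with the array SD (1.0%), against 0.23% and 1.76% of all genes. Mir10a was at 0.31 ± 0.18 and 0.44 ± 0.12 and Mir668 at -0.57 ± 0.28 and -0.27 ± 0.09.

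**Figure D2:**
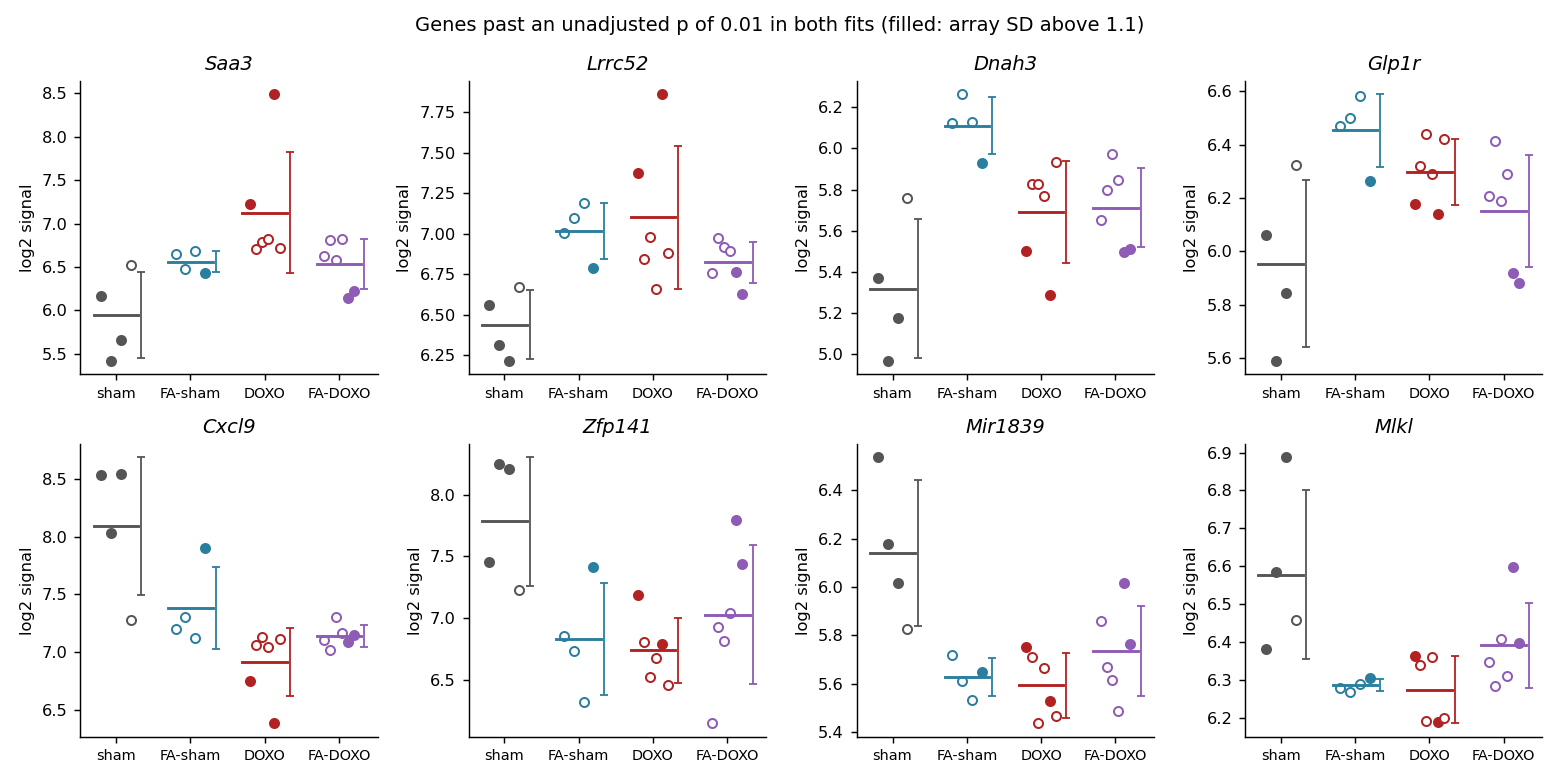
Log2 signal of 8 genes called in both fits, by group; points are arrays, filled where the array SD is above 1.1, lines are means and bars ± SD (sham and FA-sham n = 4, DOXO and FA-DOXO n = 6). In the upper row (called below 0) sham has the lowest mean and in the lower row (called above 0) the highest.

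With the array SD in the fit, a further 326 named clusters passed, among them stress genes that heart muscle is known to induce. Nfkbia, the inhibitor of NF-kB, was one. Its signal was 7.21, 8.01, 7.94 and 6.95 in sham and 7.22, 6.93, 7.04 and 7.67 in FA-sham mice. It ran from 7.05 over a median of 7.50 to 9.50 in DOXO and from 6.91 over 7.33 to 8.49 in FA-DOXO mice. The 2 highest DOXO arrays, replicates 1 and 5 at 8.91 and 9.50, were the wide ones and the only DOXO arrays above every sham array, and the 2 highest FA-DOXO arrays, at 8.49 and 8.03, were wide too. The interaction was -0.12 ± 0.62 (SE) without and -0.81 ± 0.19 with the array SD, from DOXO minus sham of 0.84 ± 0.14 and FA-DOXO minus FA-sham of 0.04 ± 0.13.

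Sgk1, a kinase that glucocorticoids and aldosterone induce, and Errfi1, a feedback inhibitor of the EGF receptor, had the same profile. Sgk1 was at 6.53, 7.89, 7.56 and 6.48 in sham, at 6.68, 6.64, 6.49 and 7.17 in FA-sham, at 6.60 to 9.57 (median 6.97) in DOXO and at 6.65 to 8.28 (median 6.80) in FA-DOXO mice. Its interaction moved from -0.12 ± 0.73 (SE) to -0.91 ± 0.27 when the array SD was added. Errfi1 moved from -0.06 ± 0.70 to -0.84 ± 0.23. The call of Sgk1 was lost without sham replicate 1 and without DOXO replicate 5.

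Alkbh3, a dioxygenase that repairs alkylated DNA and RNA, had an adjusted limma p of 0.283 with the array SD. The signals were 7.41, 8.86, 8.59 and 6.61 in sham, 6.79, 7.13, 7.06 and 8.15 in FA-sham, 6.70 to 9.66 (median 7.54) in DOXO and 6.88 to 8.57 (median 7.19) in FA-DOXO mice. The groups overlapped, and the highest values of each group were on wide arrays. The interaction was 0.08 ± 0.83 (SE) without and -0.87 ± 0.16 with the array SD, with 0.69 ± 0.11 for DOXO minus sham and -0.18 ± 0.11 under FA. It kept its side of 0.01 whichever array was left out, at -0.96 to -0.80.

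Glul, glutamine synthetase, is a further gene that glucocorticoids induce in muscle, and it is read by 2 clusters. They went from 0.62 ± 1.44 (SE) and 0.37 ± 1.38 without the array SD to -1.04 ± 0.29 and -1.23 ± 0.26 with it, and both kept the call whichever array was left out. The sources used here do not say which sequence each of them reads. The second ran over 8.05, 10.16, 9.99 and 6.96 in sham, 7.12, 7.30, 7.17 and 9.34 in FA-sham, 7.13 to 12.03 (median 8.42) in DOXO and 7.15 to 10.74 (median 7.78) in FA-DOXO mice. Clu, the secreted chaperone clusterin, went from 0.39 ± 1.32 to -1.13 ± 0.29, and Fhl1, a LIM protein of the sarcomere, from 0.20 ± 1.12 to -1.07 ± 0.33. Syt12 of the synaptotagmins went from -0.85 ± 0.37 to -1.02 ± 0.35, with the DOXO arrays at 6.11 to 7.95 and the 6 FA-DOXO arrays between 6.12 and 6.23. Each of these genes had its highest value on DOXO replicate 5. Without it Clu kept its call, Fhl1 kept its call at -0.68, and Syt12 lost its call, at -0.57. Of the 24 clusters named for the size of their call with the array SD, 9 kept it whichever array was left out, namely those of Lrrc52, Clu, Alkbh3, Mir1839, H2ac4 and Pou3f2, both of Glul and 1 of Myo9a.

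Serpina3n, a secreted inhibitor of serine proteases and an acute-phase gene, had the largest interaction of all named calls. Sham mice were at 6.59, 7.34, 7.08 and 6.83 and FA-sham mice at 6.97, 6.90, 6.75 and 7.01. The 6 DOXO values ran from 6.99 to 12.38 (median 8.65) and the 6 FA-DOXO values from 6.74 to 10.38 (median 7.98). In each DOXO group 4 of 6 arrays lay above every array of their sham group, and 2 FA-DOXO arrays lay below every DOXO array. The interaction was -0.98 ± 1.20 (SE) without and -2.13 ± 0.73 with the array SD, at -2.39 among wide and -0.40 among narrow arrays, and the call was lost without any 1 of 14 arrays. Ngp, a granule protein of neutrophil precursors, was at -1.17 ± 0.49 and -1.42 ± 0.46, with 7.65 and 8.18 on the 2 wide DOXO arrays and 5.97 to 6.16 on the 4 narrow ones.

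**Figure D3:**
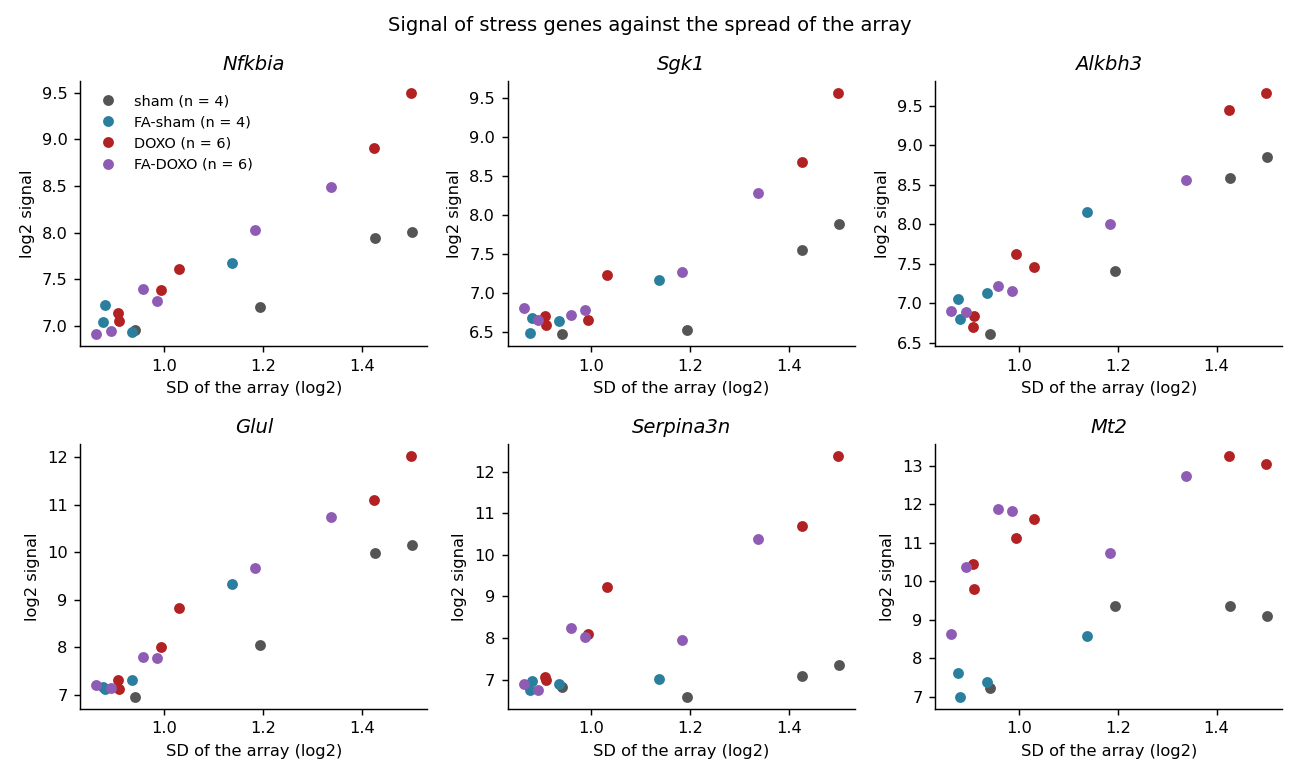
Log2 signal (vertical) of Nfkbia, Sgk1, Alkbh3, Glul, Serpina3n and Mt2 against the SD of the array (horizontal, log2), 1 point per array, coloured by group. The 2 wide DOXO arrays lie above every sham array in each gene, and in Mt2 the narrow DOXO and FA-DOXO arrays also lie above the narrow arrays of both sham groups.

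Promoters of 3 genes called below 0 were set out because Nfkbia is a target of the factor that it inhibits, and Saa3 and Serpina3n are acute-phase genes. The 250 bases before the start are from RefSeq (GRCm38.p6, gene strand). Capitals mark matches on either strand to an NF-kB type motif (GGGA, any 2 bases, TTCC), a C/EBP type motif (TTGC, any 2 bases, AA) or a glucocorticoid receptor type motif (ACA, any 3 bases, TGT), and no match of 1 motif overlapped one of another.
Nfkbia, chr12:55492648-55492897, minus strand: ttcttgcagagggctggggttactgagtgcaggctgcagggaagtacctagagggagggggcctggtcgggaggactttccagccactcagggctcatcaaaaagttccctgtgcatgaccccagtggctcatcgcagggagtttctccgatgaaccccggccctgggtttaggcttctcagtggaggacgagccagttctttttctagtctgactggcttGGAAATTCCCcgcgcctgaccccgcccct
Saa3, chr7:46715677-46715926, minus strand: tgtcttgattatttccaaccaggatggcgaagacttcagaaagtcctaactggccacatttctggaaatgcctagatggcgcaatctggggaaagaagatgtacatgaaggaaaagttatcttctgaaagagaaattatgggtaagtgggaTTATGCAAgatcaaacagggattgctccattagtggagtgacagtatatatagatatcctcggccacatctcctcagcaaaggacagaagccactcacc
Serpina3n, chr12:104406458-104406707, plus strand: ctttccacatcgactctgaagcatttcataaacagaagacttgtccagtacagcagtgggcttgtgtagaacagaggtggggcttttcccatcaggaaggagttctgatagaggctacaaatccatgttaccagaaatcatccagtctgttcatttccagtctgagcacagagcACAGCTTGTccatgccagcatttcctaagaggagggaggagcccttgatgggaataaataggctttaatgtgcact
Nfkbia held the NF-kB type motif 29 to 20 bases before its start, Saa3 the C/EBP type motif at 99 to 92 and Serpina3n the receptor type motif at 76 to 68. Of all 32851 promoter windows in the table, 1.21% held the first motif, 9.56% the second and 5.84% the third. Of 264 genes called below 0 with the array SD that have a window, 5 (1.89%), 36 (13.64%) and 22 (8.33%) held them, against 1.33%, 10.05% and 5.81% of the 15613 genes with a named cluster. These shares are descriptions of letters in short windows.

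Gene lists were then read with 1 cluster per gene. Over 19937 genes, 13 lay above 0 (0.0652%) and 32 below 0 (0.161%) at an unadjusted 0.01 without the array SD, and 31 above (0.155%) and 320 below (1.61%) with it. The median interaction over all genes was -0.13 without and -0.07 with the array SD. Of 42 lists of pathways and cell types, 6 had a member past 0.01 without and 14 with the array SD.

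The glucocorticoid-responsive genes had the lowest median interaction of all lists with the array SD. It was -0.55 (quartiles -0.74 and -0.26) over 21 genes, with median differences of 0.71 for DOXO minus sham and 0.05 under FA. Of these genes 19 lay below 0, against 13094 of all 19937 genes. Sgk1, Errfi1 and Nfkbia (14.3% of the list) passed below 0 and none above, against 1.61% and 0.155% of all genes. Among members that did not pass, the sign of Mt1, a metallothionein, turned from 0.17 ± 0.95 (SE) without the array SD to -0.86 ± 0.37 with it, and that of Dusp1, a phosphatase of MAP kinases, from 0.48 ± 1.06 to -0.72 ± 0.29. Fkbp5, a chaperone of the receptor, was at -0.41 ± 0.40 and -0.71 ± 0.31 and Cebpd, a C/EBP factor, at -0.50 ± 0.29 and -0.69 ± 0.25. Pdk4, which blocks pyruvate entry into mitochondria, was the highest at 2.41 ± 1.32 and 1.12 ± 0.78. Without the array SD the median was 0.07 and no member passed, and there it was -0.05 under quantile normalization. With array weights in that fit, where 5954 of all 19937 genes passed 0.01 above and 8552 below 0, it was 0.63, with 8 members past 0.01 above and 2 below 0. The median was -0.71, with 1 member past 0.01, among wide arrays (1 FA-sham array) and -0.10 among narrow arrays (1 sham array), and -0.45, with no member past 0.01, when wide and narrow arrays were a block. In the fit with the array SD it was -0.26 under quantile normalization and -0.24 with array weights. It was -0.35 without DOXO replicate 5 and -0.80 without sham replicate 4. Over all arrays left out in turn, 2 to 8 members passed 0.01, against 242 to 1094 of all 19937 genes.

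The acute-phase and secreted stress proteins lay below 0 in both fits, at a median of -0.51 without and -0.36 with the array SD over 24 genes. Saa3 (4.17% of the list) passed in the first, and Saa1, Saa3 and Serpina3n (12.5%) in the second, against 0.23% and 1.76% of all genes. After median centring no member passed in either fit (medians -0.34 and -0.30). Saa1, a serum amyloid A of the liver, was at -0.60 ± 0.23 (SE) and -0.38 ± 0.12, with its signals of 4.56 to 5.48 at the low end of the arrays. Lcn2, the iron-carrier binding protein lipocalin 2, was at -0.70 ± 1.23 and -1.83 ± 0.81, Osmr, the oncostatin M receptor, at 0.10 ± 0.82 and -0.80 ± 0.32, and Socs3, the inhibitor of STAT3 signalling, at -0.56 ± 0.30 and -0.60 ± 0.30. Cebpd and Lcn2 stand in both of these lists. The median was -0.57 among wide and -0.05 among narrow arrays. With the array SD 0 to 9 members passed over the arrays left out in turn, against 242 to 1094 of all 19937 genes. Among cell types, 7 of the 12 marker lists had a median below 0 in both fits. Of all 19937 genes, 12099 lay below 0 without and 13094 with the array SD, at medians of -0.13 and -0.07. The T and NK cell markers were at -0.40 and -0.12, with 14 and 12 of 14 genes below 0, the adipocyte markers at -0.40 and -0.14, the nerve and Schwann cell markers at -0.37 and -0.14, and the mesothelium and epicardium markers at -0.31 and -0.14, with 10 of 10 genes below 0 in both fits. The neutrophil markers were at -0.46 and -0.28 over 14 genes, 13 of which were below 0 with the array SD, and Ngp was the member that passed. The mean signal of the 14 markers ran from 5.67 to 6.39 in sham, 6.22 to 6.45 in FA-sham, 6.39 to 6.91 in DOXO and 6.33 to 6.70 in FA-DOXO mice. All sham arrays but replicate 4, the single narrow one, thus lay below every other array. Among narrow arrays alone the median interaction of these markers was 0.04. The part of neutrophils or of the other cell types in the acute-phase values was not tested.

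**Figure D4:**
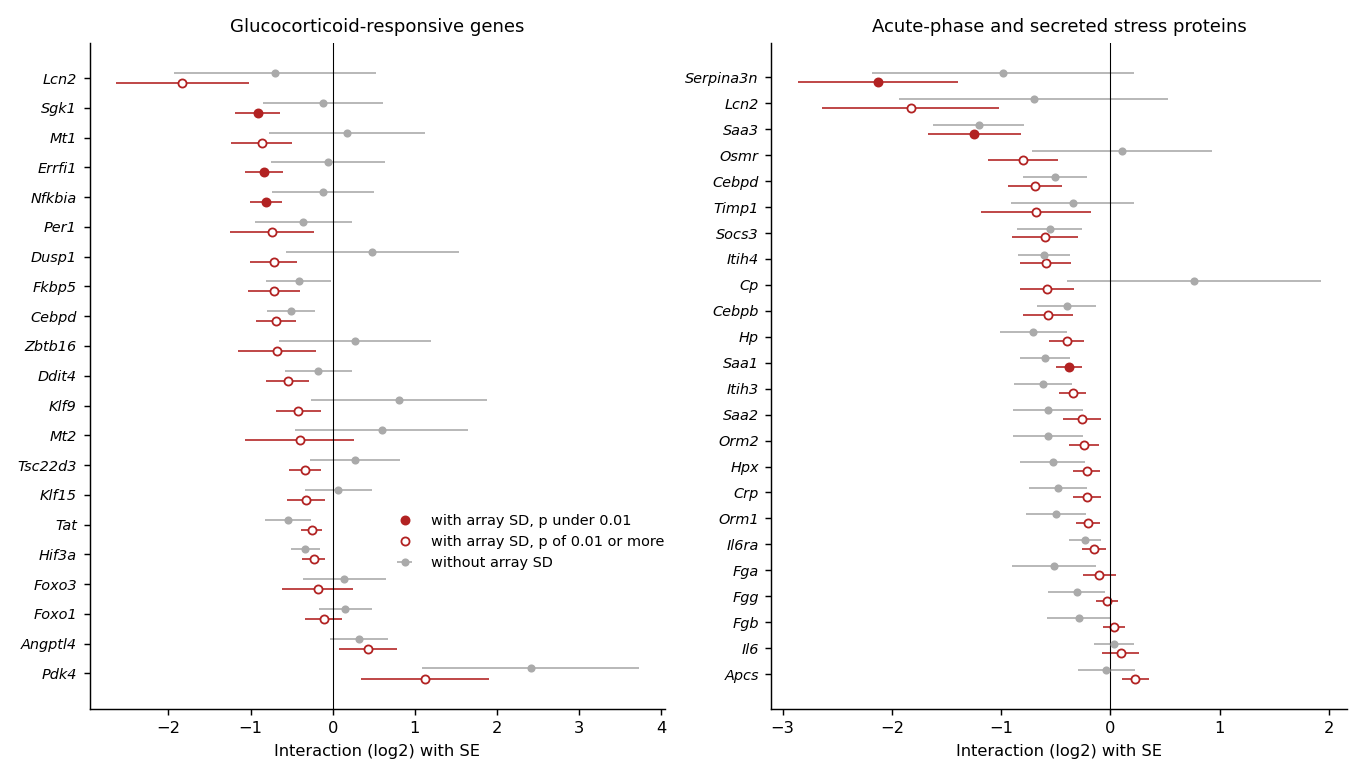
Interaction (log2, ± SE) of each glucocorticoid-responsive gene (left) and acute-phase gene (right), without (grey) and with the array SD (red; filled where the unadjusted p was under 0.01). With the array SD 19 of 21 and 21 of 24 values lie below 0, against 13094 of all 19937 genes, and the grey SEs of the genes at high signal are several times the red ones.

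Of 26 p53 targets and DNA damage genes none passed without the array SD and 3 (11.5%) passed below 0 with it, against 1.61% of all genes, at list medians of -0.05 and -0.07. They were Trp53inp1, a p53 target of autophagy and apoptosis, at -0.23 ± 0.61 (SE) and -0.89 ± 0.27, Fas, the death receptor, at -0.26 ± 0.47 and -0.76 ± 0.19, and Ephx1, an epoxide hydrolase, at 0.56 ± 0.96 and -0.54 ± 0.19. The 2 wide DOXO arrays of Fas were at 7.73 and 7.91 and the other 4 at 6.18 to 6.54, next to 6.10 to 6.87 in sham, 6.29 to 6.67 in FA-sham and 6.18 to 7.52 in FA-DOXO mice. Of 25 apoptosis regulators, Mlkl passed above 0 and Bcl2l1, which encodes the survival protein Bcl-xL, below 0 with the array SD, at -0.29 ± 0.26 and -0.53 ± 0.14. Together they made up 8.0% of that list, where 1.76% of all genes passed with the array SD.

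Members of further lists passed below 0 with the array SD and not without it, where 1.61% of all genes passed below 0 with the array SD. Cdh2, the cadherin of the intercalated disc, turned from 1.15 ± 1.46 (SE) without the array SD to -0.56 ± 0.17 with it. Zbp1, a sensor of Z-form nucleic acid, was at -0.43 ± 0.18 and -0.27 ± 0.09. Bhmt2, which passes methyl groups to homocysteine to form methionine, was the single call among 34 genes of the folate and one-carbon cycle (2.94%), at -0.71 ± 0.28 and -0.42 ± 0.12, and the medians of that list were -0.17 and -0.11. Cacnb2, a subunit of the calcium channel, was at -0.55 ± 0.21 and -0.38 ± 0.13, and Cd3g of the T-cell receptor complex at -0.68 ± 0.28 and -0.38 ± 0.09. Dbh, which makes noradrenaline, was at -0.58 ± 0.21 and -0.38 ± 0.11 and Sox10, a factor of Schwann cells, at -0.56 ± 0.23 and -0.32 ± 0.11. All of these except Cdh2 had a mean log2 signal of 5.78 to 6.88 and the lowest group mean in sham mice.

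The lists of heart muscle and energy metabolism had no call in either fit, where 0.23% of all genes passed without and 1.76% with the array SD. Their medians differed most between the fits. Before the array SD was added they were 1.45 for 35 complex I subunits, 1.41 for 40 subunits of complexes II to V, 1.49 for 31 genes of fatty acid oxidation, 1.53 for 29 genes of glycolysis and the TCA cycle, 1.53 for 25 sarcomere genes and 1.85 for 12 cardiomyocyte markers. With it they were 0.34, 0.38, 0.08, 0.04, 0.05 and 0.53 in the same order. Quantile normalization without the array SD lowered the first to 0.85 and the second to 0.72. With array weights and no array SD, where 25486 of all clusters passed an adjusted p of 0.05 in limma, 23 of the 35 complex I, 28 of the 31 fatty acid, 18 of the 25 sarcomere and 7 of the 12 cardiomyocyte genes passed 0.01 above 0. In that setting 5954 of all 19937 genes passed 0.01 above 0 and 8552 below 0, so that passing was common to most genes. Of the complex I subunits 29 of 35 were above 0 with the array SD, against 6843 of all 19937 genes, with medians of -0.14 for DOXO minus sham and 0.21 under FA. Their median interaction was -0.01 when DOXO replicate 5 was left out and -0.08 with array weights. The 29 antioxidant and glutathione enzymes went from 0.68 to -0.23 and the 29 genes of muscle atrophy, autophagy and lysosome from 0.50 to -0.19, so that their sign depended on the array SD. The 9 MHC class II genes had medians of 0.20 and 0.23, with 5 and then 6 genes above 0, and of -0.03 among narrow arrays, and the 20 genes of NO synthesis and tetrahydrobiopterin were at 0.11 and -0.02, with no call in either list.

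**Figure D5:**
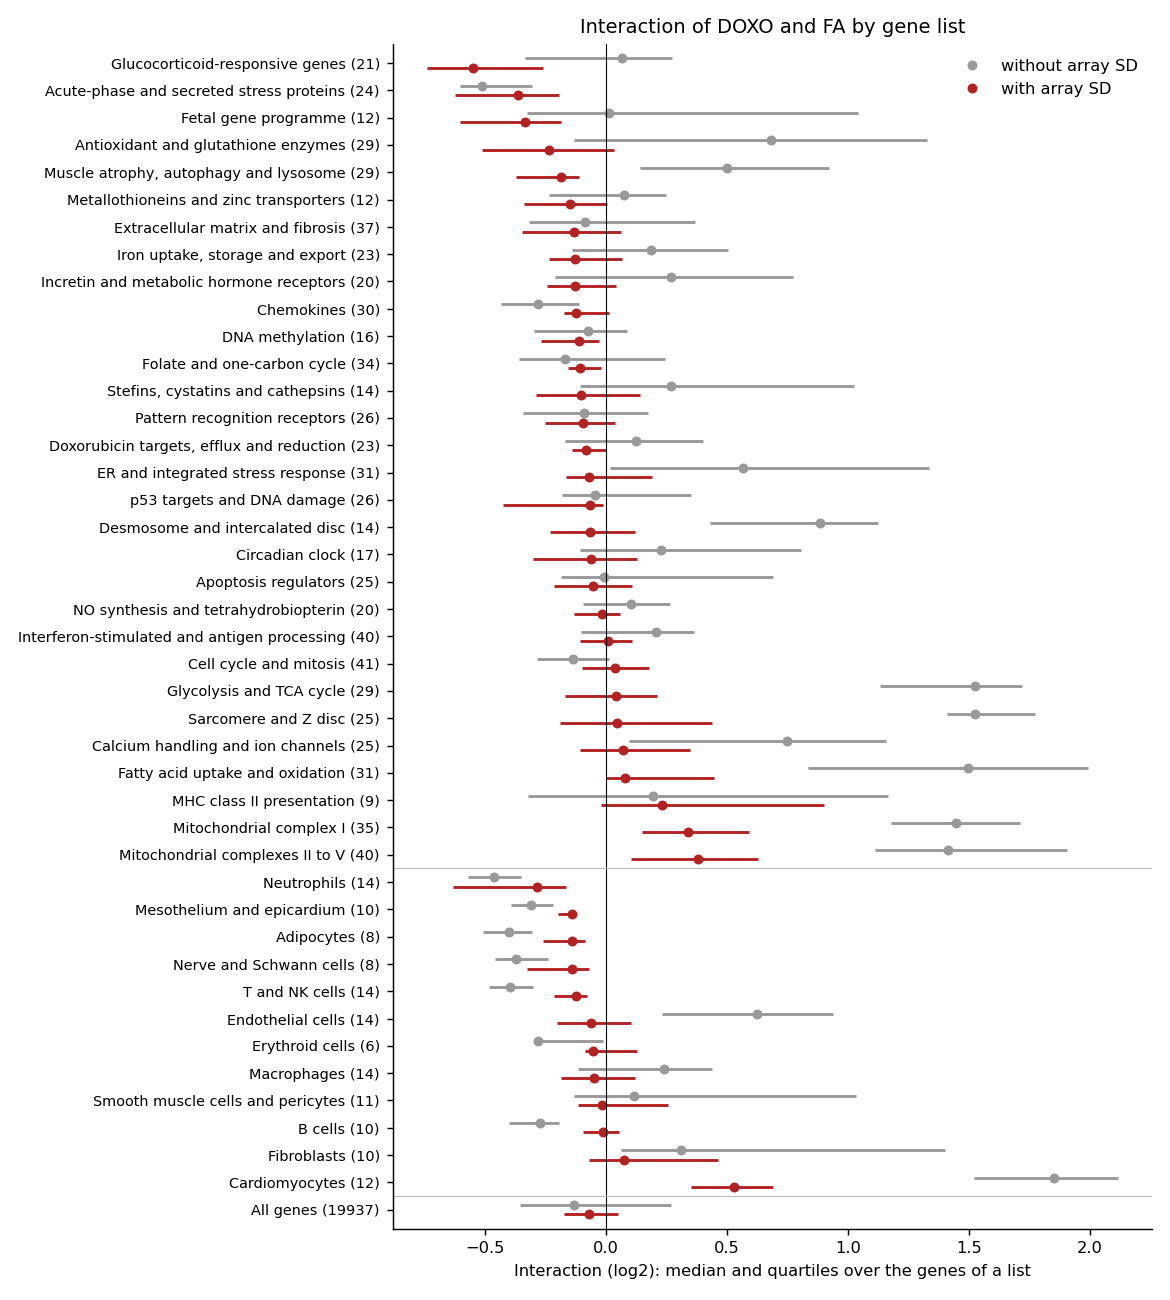
Median (points) and quartiles (bars) of the interaction (log2) over the genes of 30 pathway lists (top), 12 cell marker lists (middle) and all genes (bottom), without (grey) and with (red) the array SD; gene numbers are in parentheses. Heart muscle and energy lists lie above 1.4 in grey and at 0.04 to 0.53 in red, and glucocorticoid-responsive genes move from 0.07 to -0.55.

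Of the genes that the study names, 14 were measured. The study chose them in part on these arrays, so that they are no independent evidence. Serpina3n and Adam4 (14.3% of the list) passed with the array SD and none without it, against 1.76% and 0.23% of all genes. Adam4, a membrane protease, was at 6.49, 6.60, 6.32 and 6.86 in sham, 6.69, 6.83, 6.77 and 6.35 in FA-sham, 5.82 to 6.58 (median 6.20) in DOXO and 6.40 to 6.84 (median 6.63) in FA-DOXO mice. Of the DOXO arrays 4 lay below every sham array, and 4 FA-DOXO arrays lay above every DOXO array. The interaction was 0.29 ± 0.22 (SE) and 0.48 ± 0.13, and with the array SD it passed 0.01 whichever array was left out.

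Mt2, the metallothionein that binds zinc and scavenges radicals, had the largest DOXO difference of the named clusters, and it was large in both diets. It ran over 9.36, 9.10, 9.37 and 7.22 in sham and 7.00, 7.39, 7.63 and 8.57 in FA-sham mice, against 9.80 to 13.25 (median 11.37) in DOXO and 8.64 to 12.73 (median 11.28) in FA-DOXO mice. All DOXO arrays lay above all sham arrays and all FA-DOXO arrays above all FA-sham arrays. With the array SD the differences were 3.42 ± 0.47 (SE) and 3.01 ± 0.46, and the interaction was -0.40 ± 0.66, after 0.60 ± 1.06 without it. The SE was larger than the interaction in each fit.

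Myh7, the slow myosin of the fetal programme, likewise had all DOXO arrays above all sham arrays and all FA-DOXO arrays above all FA-sham arrays, with an interaction of -0.13 ± 1.23 (SE) and -1.28 ± 0.78. Stfa2, a stefin of neutrophils, was at -0.74 ± 0.37 and -0.90 ± 0.36 with the array SD and Stfa3 at -0.46 ± 0.20 and -0.33 ± 0.16. Of the further stefins, Csta1 was at 0.06 ± 0.23 and 0.16 ± 0.21 and Cstb at 0.26 ± 0.39 and -0.10 ± 0.23. Of the fetal genes, Acta1, skeletal actin, was at 0.34 ± 0.90 and -0.60 ± 0.43, Nppa, atrial natriuretic peptide, at 0.87 ± 1.05 and -0.15 ± 0.62, and Nppb, brain natriuretic peptide, at 0.16 ± 0.81 and -0.65 ± 0.45. Endothelial Nos3 was at -0.01 ± 0.36 and -0.28 ± 0.29, neuronal Nos1 at -0.35 ± 0.26 and -0.09 ± 0.11 and inducible Nos2 at 0.00 ± 0.17 and 0.09 ± 0.15.

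Symbol families describe the calls outside these lists. Of all genes, 0.23% passed without and 1.76% with the array SD. Of 412 zinc finger genes, 3 passed above and 1 below 0 without the array SD (0.97%) and 4 above and 1 below with it (1.21%), at medians of 0.03 and 0.01. Of 1027 olfactory receptor genes, which ventricle is not known to use, 14 passed below 0 and none above with the array SD (1 below without it), at medians of -0.32 and -0.03. These 14 were 1.36% of the family, less than the 1.76% of all genes. Of 741 RIKEN clones 2 (0.27%) passed below 0 without and 18 (2.43%) with the array SD. Of 486 numbered gene models 1 passed below and 1 above without the array SD (0.41%), and 13 below and 2 above with it (3.09%). None of 70 ribosomal protein genes passed. H2ac4, a histone H2A gene, was at 0.77 ± 0.29 (SE) and passed above 0 with the array SD at 0.92 ± 0.26, with 5 of 6 FA-DOXO arrays above every FA-sham array. So did 1 of 2 clusters of Pou3f2, a neural transcription factor, at 0.41 ± 0.24 and 0.60 ± 0.17, and Cyp2c67, a cytochrome P450, at 0.55 ± 0.27 and 0.71 ± 0.23, both of which turned to -0.033 with the array SD when signals were floored at the 20th percentile. Marcks, a substrate of protein kinase C, passed as well, at 1.06 ± 0.39 and 0.69 ± 0.23, as did 1 of 2 clusters of Taok1, a stress kinase, at 1.23 ± 0.56 and 0.61 ± 0.18, and Tfam, the transcription factor of mitochondrial DNA, at 1.08 ± 0.45 and 0.61 ± 0.21.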

How the data were processed

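Left ventricular total RNA from 20 mice was hybridised to 1-colour Affymetrix Mouse Gene ST arrays. The values are log2 signals per transcript cluster as deposited by the authors; the labels' processing notes name R 2.14.2, and how the arrays were background corrected and normalized was stated in none of the sources read, so that a difference in spread between arrays could come from the samples or from that processing. Values ran from 2.08 to 14.9 and array medians from 6.23 to 6.66. The number of arrays limits the precision.

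Samples were grouped by title. Of 34760 clusters, 21640 had 1 symbol in the platform table, 1321 had several and 11799 were not listed; 21553 of the symbols were matched to RefSeq by Entrez ID, which changed none of them. limma 3.58.1 (R 4.3.3) was fitted to all 34760 clusters with 1 mean per group, without and with the centred SD of each array's values. Calls were made at an unadjusted p of 0.01 and, after Benjamini-Hochberg adjustment over all clusters, at 0.05. The interaction of the array SD was tested by an exact permutation of FA labels within the sham and DOXO arms. No 2 arrays were identical, the highest correlation being 0.98. For lists, the cluster with the highest mean stood for a gene. Named genes were the 12 calls of largest size per direction and fit, members of lists past 0.01, up to 3 further members of a described list by smallest p and the genes the study names; Fkbp5, Osmr, Socs3, Mir10a and Mir668 were added after their values were seen. The contrast, the gene lists and the motifs were chosen with earlier results of these data known. The procedure was tested on simulated data.

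Replicate numbers were not used to pair samples: of 26 same-numbered pairs, 12 had deviations correlated above 0.1. The correlation was 0.84 for replicate 5 of DOXO and FA-DOXO, both wide arrays, and -0.83 for replicate 6, narrow in DOXO and wide in FA-DOXO. Array spread thus enters this check, which cannot tell whether the numbers mark pairs. Alternatives comprised filters, normalizations, floors, weights, blocks and leaving out each array.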

Additional observations from a re-analysis of the deposited data

Results flagged for a closer look

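Of 216 sets of values checked, 1 per gene and group, 15 had a sample far from the others by Dixon's test, and chance alone puts about 1 in 20 there. On FA-sham replicate 4, the single wide FA-sham array, both Glul clusters (9.3508 and 9.3394) and Acta1 (9.4703) were high and P2ry4 (5.9349) was low. On sham replicate 4, the single narrow sham array, Stfa3 (5.7247) and Gabarapl2 (5.9555) were high and Nppa (8.9699) and Mt2 (7.2182) low. On DOXO replicate 5, a wide array, Saa3 (8.4894), Syt12 (7.9453) and Nos3 (8.4123) were high and H2ac4 (4.96), Csta1 (4.9097) and Cyp2c67 (4.6018) low. Zfp931 was high on DOXO replicate 1 (7.1616), also a wide array. All are log2 signals, and the part of array spread in them was not tested.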

How the results depend on the processing

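Clusters passed an adjusted p of 0.05 in limma under 2 settings, 25486 with array weights and no array SD, and 4 with the array SD and without sham replicate 4. The counts past an unadjusted 0.01 moved widely. Without the array SD (161 clusters) there were 34 among clusters with a mean signal above the median, 60 with signals above the array median on at least 4 arrays, 58 with exactly 1 symbol, 248 after median centring, 100 with a floor at the 20th percentile, 250 without variance moderation, 35 among wide arrays (1 FA-sham array) and 256 among narrow arrays (1 sham array), 618 with the array SD as covariate and 22356 with array weights (gene-by-gene algorithm, as REML did not converge). Leaving out 1 array gave 76 (sham replicate 2) to 1707 (sham replicate 4), with 85 without sham replicate 3, 80, 79 and 280 without FA-sham replicates 1, 3 and 4, 427, 100 and 432 without DOXO replicates 1, 3 and 5, and 100 without FA-DOXO replicate 5 or 6. With the array SD (618 clusters) there were 223 and 351 under the signal filters, 408 after quantile normalization and 392 with array weights, and 445 (without FA-DOXO replicate 2) to 1644 (without sham replicate 4). The split above and below 0 turned with scaling: 72 to 89 as deposited, 166 to 82 after median centring and 101 to 134 after quantile normalization; with the array SD 128 to 490, 257 to 194 and 187 to 221. Median centring moved the median of all interactions from -0.13 to 0.04. With a floor at the 20th percentile Gm14636 turned to -0.23 without the array SD, and Cyp2c67 and Pou3f2 to -0.033 with it. With the replicate number as a block, which is not known to pair these samples, 148 and 484 clusters passed.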
